A study of Mus musculus with 5 samples.

Results

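The 48 genes described here encode protein factors that start and extend translation, and kinases, repressors and other proteins that act on these factors. All 48 are called translation factor genes here for short. They were taken as every gene whose platform symbol begins with Eif or Eef, with the Y-linked gene Eif2s3y left out, and were measured by 65 of 12422 non-control probe sets, out of 8251 genes that the platform annotation names singly. One further probe set carried several symbols, among them an Eif symbol, and was left unnamed. Total RNA of 5 mouse samples was hybridised to 1-colour arrays, 1 array per sample. The labels call every sample a dendritic cell progenitor from bone marrow that carries FLT3 and CD11b, number the samples 1 to 5, and give no strain, genotype, age, treatment or animal. All 5 samples therefore formed 1 group with no control. Whether they came from separate animals is not stated, so the spread between them may be technical. In bulk RNA, fewer cells of a type and less RNA per cell cannot be told apart.

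Translation starts when eIF2, loaded with GTP and the initiator tRNA, joins the small ribosomal subunit together with eIF1, eIF1A, eIF3 and eIF5. The eIF4 factors bring this complex to the capped end of an mRNA, where it scans to the start codon. eIF2B recharges eIF2 with GTP, and the 4 eIF2 kinases slow initiation by phosphorylating eIF2 under stress, which favours translation of the transcription factor ATF4. The elongation factors eEF1A and eEF2 then deliver each aminoacyl tRNA and move the ribosome along the message.

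Several mRNAs of the translation apparatus begin with a C followed by a run of pyrimidines, the 5′ terminal oligopyrimidine tract, through which mTOR signalling controls their translation. RefSeq start sites (GRCm38.p6) were supplied for 40 of the 48 genes. A C followed by at least 4 bases that are each C or T, read on the strand of the transcript and with the C within 5 bases of an annotated start, was present in 11 of 40 genes (27.5%). The same search matched 5718 of 27025 genes in the whole table (21.2%). The 6 genes with the longest runs are shown because they span the carrier of the initiator tRNA, its exchange factor, eIF3 and the main elongation factor. Each window gives the 5 bases before and the 15 bases from the annotated start, 5′ to 3′, with the longest such run in capitals.
Eif3f, chr7:108934410-108934429, plus strand: gCTCTCTCTCTTTCTCggca
Eif2s3x, chrX:94212637-94212656, minus strand: ttttCCTTTTCTCTCCgagc
Eef1a1, chr9:78481710-78481729, minus strand: CCCTCTTCCCgagggtgggg
Eif3l, chr15:79075218-79075237, plus strand: cttcttccgCTCTCTCCCac
Eif2b2, chr12:85219476-85219495, plus strand: cggaagttgaCCTCTCTCgg
Eif2b5, chr16:20498812-20498831, plus strand: tCTCTCCCTgcaactacacc
Of these genes, all but Eif3f had signal above the limit described next on all 5 arrays. Among the 11 genes with a run, 6 were above it, and among the 29 without, 22 were. These matches are a description of letters near annotated starts, which may not be the starts used in these cells.

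Signals are array intensities scaled to a common array median of 103.4, and the limit used here is that median. A gene is called above the limit where each of the 5 arrays put it over the median. Being over or under it is a rank among probe sets of an array, not a call of presence or absence. Genes with several probe sets were represented by the one with the highest mean log2 signal. Statements on which sample was high or low refer to the scaled signals. For 52 of the 65 probe sets, the lowest and the highest sample were the same under quantile normalization and under scaling to a common trimmed mean. Most translation factor genes lay above the limit: 34 of 48 (70.8%) on all 5 arrays, against 44.5% of all named genes. Of the rest, 9 exceeded it on 1 to 4 arrays, and 5 never did, namely Eif4e, Eif4h, Eif4enif1, Eif5a and Eef1g, against 26.7% of all named genes. Counting each probe set on its own gave 37 of 65 (56.9%), against 36.7% of all probe sets. The count of genes was 38 with the limit at the 40th percentile, against 51.1% of all named genes, 19 at the 75th, against 21.7%, and 40 where 3 arrays sufficed, against 57.3%.

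Marker genes of several cell types were set against the same limit. The labels name a progenitor, so the list of dendritic cell genes is no check of the label. Both gate genes were above the limit on all 5 arrays, while 0 of 5 dendritic cell genes were (Itgax, H2-Aa, H2-Ab1, Ccr7 and Cd86). Of these 5, however, 3 were over the median on some arrays (Itgax, H2-Aa and Cd86) and 2 on none. Neutrophil granule genes were above the limit in 5 of 5 cases, B cell genes in 1 of 4, and stromal genes in 1 of 5. T and NK cell and erythroid genes were in 0 of 5 and 0 of 4, with 3 and 2 over the median on some arrays. The share of all named genes above the limit was 44.5%. The arrays also differed in the ratio of 3′ to 5′ signal of the control transcripts, which for actin was 1.08 in sample 1 and 2.55 to 5.20 in the others, and for the transferrin receptor was highest in sample 3 at 16.7. At the top 1% of signal, 125 probe sets lay a median of -0.64 log2 units from the mean of the other samples in sample 1 and 0.48 in sample 4. The part of these differences in the results for single genes was not tested unless a value is given beside the result.

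**Figure D1:**
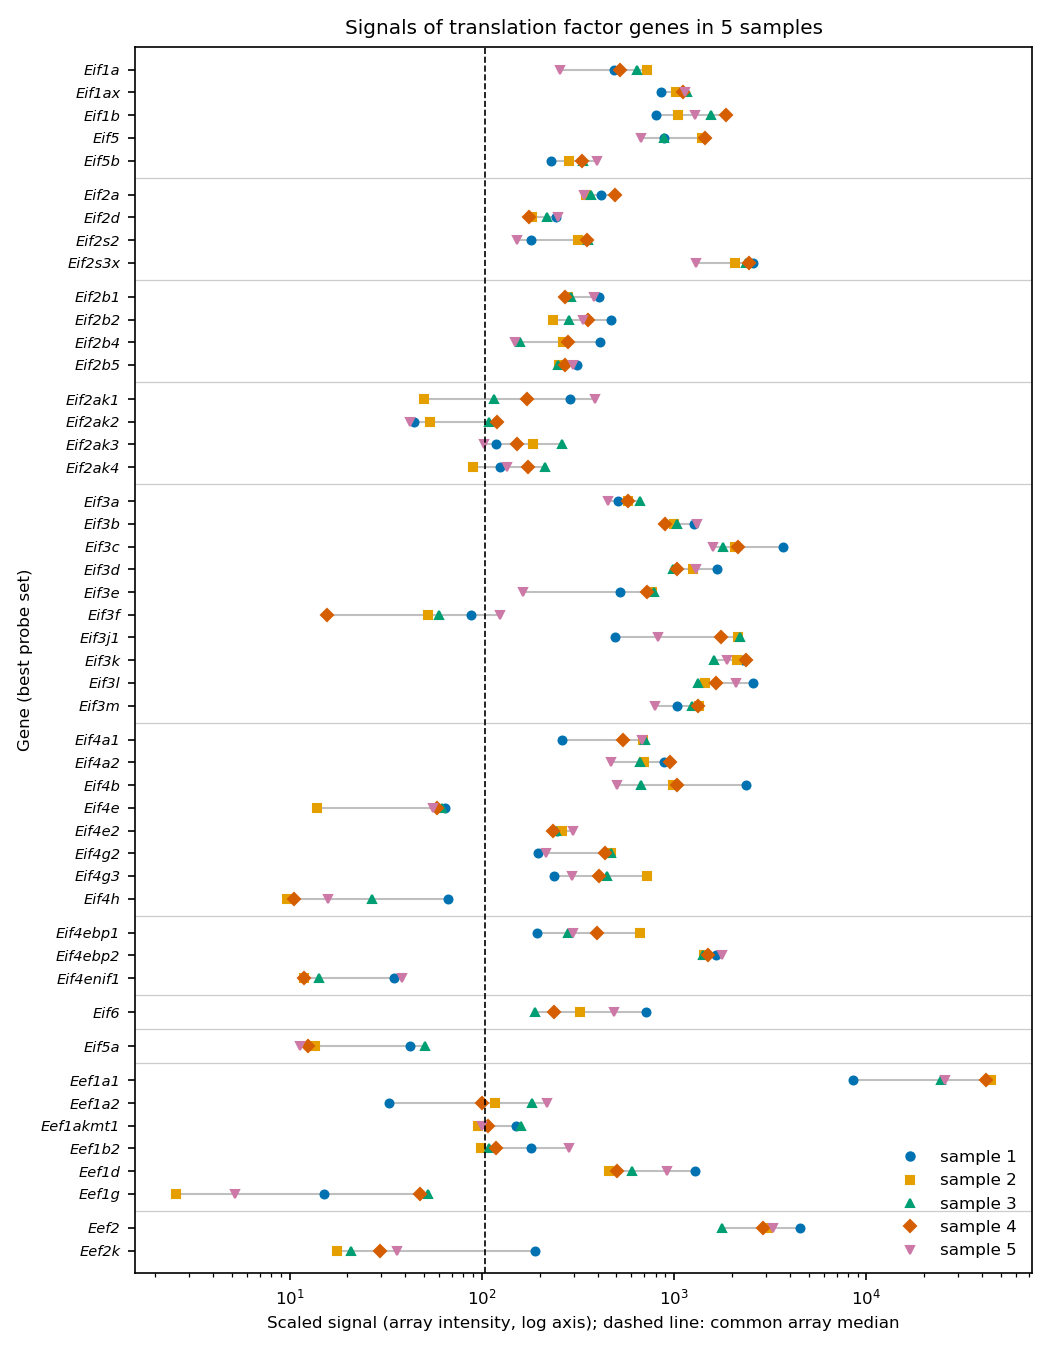
Scaled signal (array intensity, log axis) of the 48 genes in samples 1 to 5, 1 row per gene in the order of the factor groups, with a dashed line at the common array median of 103.4. The rows of the eIF2, eIF2B and scanning factors lie right of the line in every sample, while each eIF2 kinase row has at least 1 sample left of it.

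The core of initiation, the factors that carry the initiator tRNA and select the start codon, was above the limit by the probe set that represents each gene. All 5 genes of scanning and start codon selection and all 4 measured carriers of the initiator tRNA were above the limit on all 5 arrays. Eif2s3x, the gamma subunit of eIF2 that binds GTP and the tRNA, had signals of 2577, 2065, 2368, 2451 and 1298 in samples 1 to 5, a mean of 2152 ± 513 (SD, n = 5). Sample 5 was the low one, and the other 4 lay close together. Eif2s2, the beta subunit, had 181, 316, 358, 352 and 152, lower in samples 1 and 5 than in the other 3. Its second probe set, 160365_at, had 112, 67.9, 159, 121 and 178 and was instead highest in sample 5, so the 2 probe sets gave different orders of the samples. The alpha subunit gene Eif2s1, the substrate of the kinases, was not analysed here. Eif2a, a separate factor that can deliver the initiator tRNA without GTP and is not the alpha subunit, had 418, 347, 368, 492 and 339. Eif2d, which can bring tRNA to the ribosome outside the canonical route, had 242, 182, 217, 175 and 249. These differed by 1.45-fold and 1.42-fold between the lowest and highest sample. The second probe set of Eif2d, 102127_at, had 16.9, 64.4, 122, 53.7 and 6.11, over the median in sample 3 only.

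Among the scanning factors, Eif1ax, which encodes eIF1A and helps to open the small subunit, had 851, 1028, 1166, 1108 and 1136, all 5 samples within 1.37-fold. Its other probe set, 160111_at, had 40.6, 198, 213, 156 and 135, with sample 1 far below the rest. The autosomal gene Eif1a had 485, 725, 638, 524 and 254, lowest in sample 5, and its second probe set, 103708_at, with 354, 792, 541, 781 and 246, was likewise lowest in sample 5 and highest in sample 2. Eif1b, a close relative of the start codon factor eIF1, ranged from 808 in sample 1 to 1851 in sample 4. Eif5, which triggers GTP hydrolysis by eIF2 at the start codon, ranged from 674 to 1439, and Eif5b, which joins the large subunit, from 229 to 395. The second Eif5b probe set, 98141_at, had 36.8, 166, 116, 95.9 and 111 and was over the median on 3 arrays.

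eIF2B, the exchange factor that the phosphorylated form of eIF2 blocks, was above the limit for all 4 measured subunits. The catalytic subunit gene Eif2b5 had 311, 252, 249, 271 and 299 in samples 1 to 5, within 1.25-fold and among the 3 smallest SDs of the 46 translation factor probe sets tested for spread (0.14 on the log2 scale). Its second probe set, 160804_at, had 175, 107, 125, 22.7 and 100.2 and was below the median in samples 4 and 5. Eif2b1, the alpha subunit that senses phosphorylated eIF2, had 409, 282, 289, 272 and 383, and Eif2b2, the beta subunit, 469, 235, 284, 355 and 336. Sample 1 had the highest signal of all 4 subunits, though for Eif2b5 sample 5 was highest when arrays were scaled to a common trimmed mean. Eif2b4, the delta subunit, had 412, 264, 158, 280.4 and 149, with samples 3 and 5 low. Relative to all probe sets tested, the median shift of the 4 genes from their own mean was 0.48 log2 units in sample 1, with 4 of 4 above, and -0.23 to 0.16 in the others.

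Signals of the eIF2 kinases lay around the limit: 0 of 4 were above it on all 5 arrays, and 4 of 4 were above it on some. They differed from each other in which samples were high. Eif2ak1, the heme-regulated kinase HRI known from erythroid cells, had 287, 49.8, 116, 171 and 388 in samples 1 to 5. It was lowest in sample 2 and highest in sample 5, a 7.79-fold range, with an SD of 1.16 on the log2 scale. Summed signal of the 4 measured erythroid markers was 143.8 to 345 over the samples, with 0 of 4 above the limit on all arrays. It was 319 in sample 2 and 229 in sample 5, but the markers went both ways. Klf1 and Gata1 were higher in sample 2 than in sample 5 (181 against 30.2 and 85.5 against 12.3). Epor and Alas2 were lower in sample 2 (31.7 against 84.6 and 21.1 against 102). Their part in the range of Eif2ak1 was not tested. Eif2ak2, the double-stranded RNA-activated kinase PKR induced by interferon, had 44.4, 53.9, 109, 120.1 and 42.5, above the median in samples 3 and 4 only. Eif2ak3, the endoplasmic reticulum stress kinase PERK, had 119, 185, 260.1, 152 and 102, with sample 3 highest. Eif2ak4, the amino acid sensor GCN2, had 124, 90.04, 214, 174 and 136, also highest in sample 3 and lowest in sample 2. Sample 3 kept the highest signal of Eif2ak3 and Eif2ak4, and sample 2 the lowest of Eif2ak1 and Eif2ak4, under quantile and trimmed mean scaling. Sample 3 also had the highest 3′ to 5′ ratios of the Gapdh and transferrin receptor controls, and their part in this order was not tested.

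Genes downstream of the kinases were mostly above the limit. Of 11 measured integrated stress response targets, 7 were above it on all 5 arrays, 3 on some and 1 on none. Of all named genes, 44.5% were above it on all 5 arrays. Atf4, the transcription factor translated when eIF2 is phosphorylated, had 4638, 4168, 1771, 3193 and 2462, lowest in sample 3. Ddit3, which encodes CHOP, had 242, 632, 123, 234 and 209.9, with sample 2 high and sample 3 lowest. Of the 10 targets tested for variance, 5 were lowest in sample 3, 3 in sample 2, and 1 each in samples 4 and 5. Of all probe sets tested, 21.6% were lowest in sample 3 and 18.1% in sample 2. In sample 3, 1 target was highest, against 14.5% of all probe sets tested. Sample 1 and sample 2 were each highest for 4, against 22.0% and 21.4%. Of the kinases, Eif2ak3 and Eif2ak4 were highest in sample 3, Eif2ak2 in sample 4 and Eif2ak1 in sample 5. Sample 3 also had the highest 3′ to 5′ ratio of the transferrin receptor control, at 16.7, and its part here was not tested. Transcript levels do not show kinase activity or phosphorylation. Of the 10 targets, 0 passed the test of variance described with the spread, as did 0 of all 5814 probe sets tested.

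**Figure D2:**
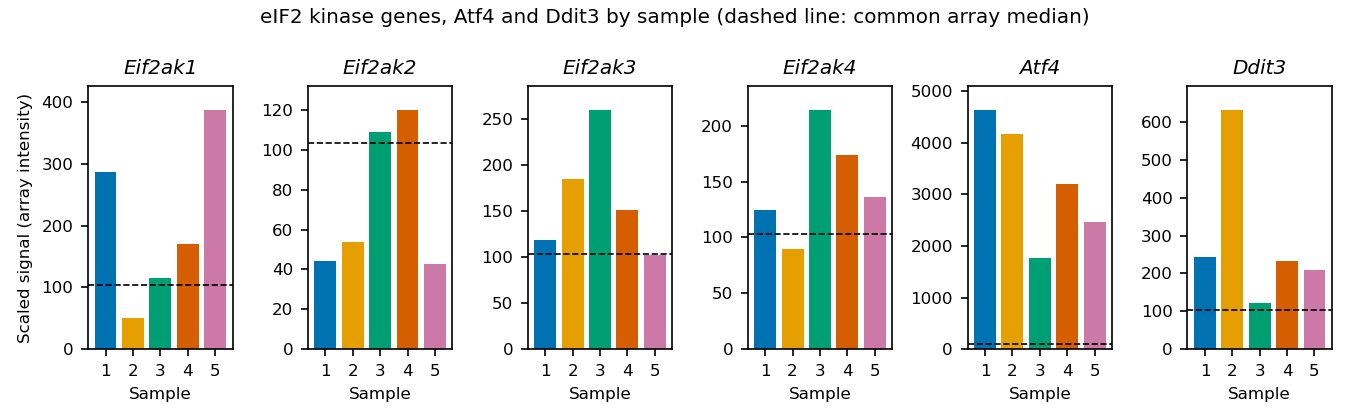
Scaled signal (array intensity) of the 4 eIF2 kinase genes, Atf4 and Ddit3 in samples 1 to 5, 1 bar per sample on axes that start at 0, with the common array median of 103.4 as a dashed line. Eif2ak3 and Eif2ak4 are highest in sample 3, at 260.1 and 214, where Atf4 and Ddit3 are lowest. Eif2ak2 is highest in sample 4 and Eif2ak1 in sample 5.

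eIF3, the large scaffold that binds the small subunit and recruits eIF4G, was above the limit for 9 of 10 measured subunits. Most of them had small SDs: the median SD of the 9 genes tested was 0.32 on the log2 scale, against 0.47 over all probe sets tested. The means of these 9 genes ran from 556 to 2255, and this comparison takes no account of signal. Eif3a, the largest subunit, had 508, 579, 668, 576 and 451, within 1.48-fold, and Eif3k, a peripheral subunit, lay within 1.46-fold. Eif3c, a core subunit, had 3678, 2063, 1789.5, 2151 and 1595, with sample 1 above the rest, and Eif3l was also highest in sample 1, at 2581 against 1332 to 2086. The remaining eIF3 genes tested, Eif3b, Eif3d and Eif3m, had means of 1102 ± 178, 1248 ± 271 and 1149 ± 234. The second probe set of Eif3b, 161743_i_at, was over the median on 1 array, and that of Eif3l, 162283_r_at, on none.

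A pair of eIF3 genes had larger SDs. Eif3e, a subunit linked to the initiation factor kinase Mnk1, had 524, 765, 789, 721 and 164, with sample 5 far below the other 4, and a 4.82-fold range. The second Eif3e probe set, 101695_at, lay under the median on all arrays, at 9.28 to 70.8. Eif3j1, a loosely bound subunit that acts on mRNA entry, had 491, 2145, 2193, 1749 and 819.9, with samples 1 and 5 low and the other 3 together. Their SD was 0.96 each on the log2 scale. They were the 2 translation factor probe sets with an unadjusted p under 0.05 for variance (0.0334 and 0.0352), and neither passed after adjustment (limma, adjusted p = 0.925 for each). Eif3f, whose start site holds the longest pyrimidine run shown, had 88.2, 52.5, 59.98, 15.7 and 125 and was above the median in sample 5 only.

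The eIF4 factors, which bind the cap and unwind the 5′ leader, were mixed. Of 8 genes, 6 were above the limit on all arrays and 2, Eif4e and Eif4h, on none. Eif4e, the cap-binding protein itself, had 64.4, 13.9, 62.3, 58.3 and 55.7 in samples 1 to 5, and its other probe set, 162222_r_at, had 12.4, 3.98, 68.3, 25.8 and 33.9. Both probe sets stayed under the median of 103.4 in every sample, which is no measure of absence. Eif4h, a helper of the helicase eIF4A, had 67.1, 9.67, 26.9, 10.6 and 15.8. Eif4e2, the cap-binding homologue that represses translation, had 247, 260.3, 244, 234 and 298, the smallest SD of the 46 translation factor probe sets tested (0.13 on the log2 scale). Its second probe set, 161911_f_at, had 55.6, 255, 275, 165 and 37.5 and the largest SD of the 46 (1.31), so the same gene held both ends of the order.

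Of the helicase genes, Eif4a1 had 259.7, 686, 703, 539 and 679, with sample 1 below the other 4, and Eif4a2 had 886, 695, 661, 952 and 468, with sample 5 lowest. Eif4b, the helicase cofactor, had 2352, 989.6, 671, 1034 and 504 by probe set 100557_g_at, highest in sample 1. By probe set 161342_r_at it had 455, 559.7, 543, 698 and 335, highest in sample 4, and a further 2 probe sets, 100556_at and 100558_at, lay under the median on all 5 arrays. The scaffold genes Eif4g2, a homologue without the cap-binding contact, and Eif4g3 had 197, 467, 472, 439 and 215 and 236, 719.6, 449, 409 and 296. Both were lowest in sample 1. Eif4g1 was not analysed here.

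The repressors that hold eIF4E were above the limit in 2 of 3 genes. Eif4ebp1, which encodes 4E-BP1, a target of mTOR and of ATF4, had 193, 666, 281, 399 and 296 in samples 1 to 5. Sample 2 was highest and sample 1 lowest. Ddit3 was also highest in sample 2, but Atf4 was highest in sample 1, at 4638. Of the 10 stress response targets tested, samples 1 and 2 were each highest for 4. Eif4ebp2 had 1641, 1433, 1420.4, 1497 and 1782, within 1.25-fold by probe set 101072_at. Its second probe set, 94353_at, had 174, 409.8, 446, 429 and 179, with samples 1 and 5 low, and 96729_at lay under the median throughout. Eif4enif1, the importer of eIF4E into the nucleus, had 34.995, 11.9, 14.3, 11.8 and 38.6. Eif6, which keeps the ribosomal subunits apart, had 713, 325, 189.7, 237 and 486, with samples 1 and 5 high and sample 3 lowest, a 3.76-fold range.

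Signal of eIF5A, the factor that relieves stalled ribosomes and carries the modified residue hypusine, was under the median by its only probe set, at 42.2, 13.5, 50.4, 12.4 and 11.3. Of 5 measured genes for the modification of eIF5A and eEF2, 3 were above the limit on all arrays and 2 on some. The share of all named genes above it on all arrays was 44.5%. Dhps and Dohh, the enzymes that make hypusine, had means of 121 ± 58.5 and 171 ± 53.7.

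Elongation factor genes differed in which samples were high, and Eef1a1 and Eef1a2 had wide ranges. Eef1a1, which delivers aminoacyl tRNA, had 8512, 44578, 24342, 42039 and 25717 in samples 1 to 5, a mean of 29038 ± 14704 (SD, n = 5). Samples 2 and 4 were high and sample 1 was the lowest, a 5.24-fold range that shrank to 2.79-fold after quantile normalization. In the values as deposited, sample 1 was highest instead. The top 1% of all probe sets moved with it, at -0.64 log2 units in sample 1, 0.30 in sample 2 and 0.48 in sample 4. The summed signal of 5 neutrophil markers was 42114 in sample 1, 121728 in sample 2 and 162786 in sample 4, carried by S100a8 (9540.2, 68953 and 82007) and S100a9 (12172, 45648 and 57705). The other 3 markers, Elane, Mpo and Ltf, were lower in sample 2 than in sample 1, at 2027 against 10647, 3491 against 7306 and 1609 against 2449. In sample 4, Mpo and Ltf were higher than in sample 1, at 8138 and 8611, while Elane was lower, at 6325. The part of these markers in the range of Eef1a1 was not tested. This gene has close copies in the genome, which its probes may also bind. Eef1a2, the paralogue known from muscle and neurons, had 32.8, 117, 182, 99.99 and 219, above the median on 3 arrays and lowest in sample 1, with a 6.68-fold range. Its value in sample 1 lay near 30.0, the floor applied before log2. Neither gene passed the test of variance (limma, adjusted p = 0.937 for Eef1a1 and 0.943 for Eef1a2), but no probe set of the 5814 tested did.

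The exchange factors that recharge eEF1A had other samples high. Eef1d, the delta subunit of eEF1B, had 1283, 456, 602, 503 and 923, highest in sample 1 and lowest in sample 2. Eef1b2, its beta subunit, had 181, 99.3, 109, 118 and 284 by probe set 96624_r_at, also lowest in sample 2 and highest in sample 5. The second Eef1b2 probe set, 102107_at, had 70.4, 45.8, 82.3, 99.8 and 44.2, under the median on all arrays. It was instead lowest in sample 5 and highest in sample 4, so the 2 probe sets gave different orders of the samples. Eef1g, the gamma subunit, had 15.2, 2.56, 52.3, 47.4 and 5.22, and its probe set is the only one for this gene. Eef1akmt1, a methyltransferase that modifies eEF1A, had 150.1, 95.4, 159, 108 and 100.2, above the median on 3 arrays.

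Eef2, the translocase, was above the limit with 4512, 3074, 1778, 2914 and 3286, lowest in sample 3 and highest in sample 1, a 2.54-fold range. Eef2k, the kinase that inactivates eEF2, had 189, 17.6, 20.98, 29.5 and 36.3. It was above the median in sample 1 only, and 3 of its other samples lay at or under 30.0, the floor applied before log2. Eef2 and Eef2k were thus both highest in sample 1, on the scaled signals, under quantile normalization and with a common trimmed mean.

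**Figure D3:**
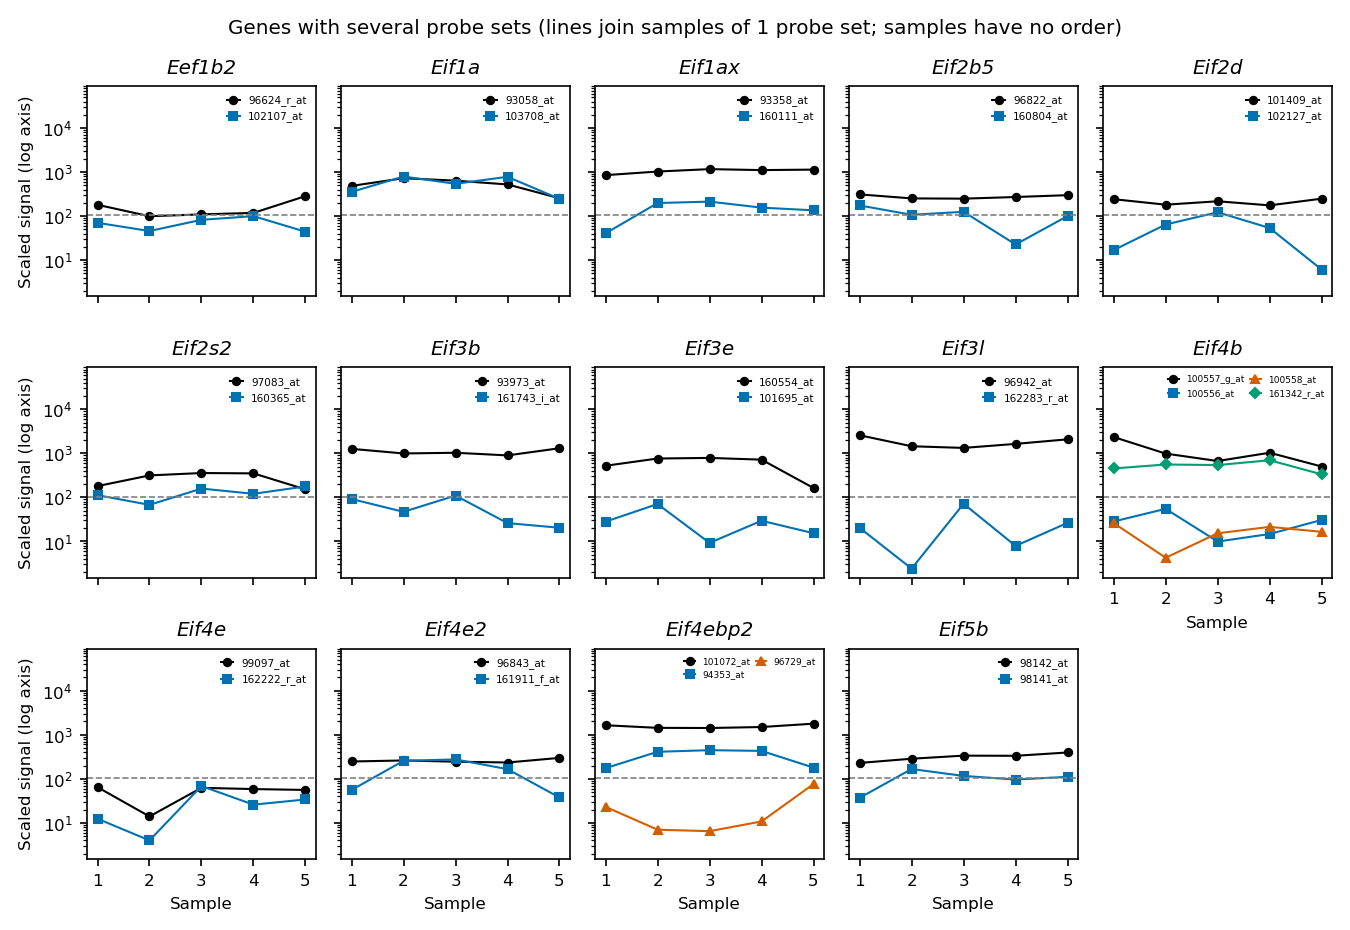
Scaled signal (log axis) in samples 1 to 5 of each probe set of the 14 genes that have several, 1 panel per gene, with the common array median of 103.4 as a dashed line. In 11 of the 14 panels some probe sets lie over the line in every sample and others do not, as for Eif3l, where probe set 96942_at is at 1332 or more and 162283_r_at at 71.8 or less.

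Probe sets of the same gene often disagreed. Of 14 genes with several probe sets, 31 probe sets in all, 11 genes had some above the limit on all 5 arrays and some not. These were Eif1ax, Eif2b5, Eif2d, Eif2s2, Eif3b, Eif3e, Eif3l, Eif4b, Eif4e2, Eif4ebp2 and Eif5b. A suffix such as _r, _f, _i, _g or _s marks probe sets that the array's maker chose under relaxed rules or that may bind several transcripts, and 7 of the 31 carry one. For Eif4a1 the only probe set carries such a suffix, as does that of Eif2b4.

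Spread between the samples was tested with limma by setting the variance of each probe set against a scaled F distribution whose scale follows the mean signal. That distribution was fitted to the variances of all probe sets tested, so the test can only single out probe sets far more variable than most. A gene that did not pass is not thereby shown to be stable. Of the 65 probe sets, 46 had a mean above the median and were tested, and 19 were not. They covered 40 of the 48 genes. At an adjusted p of 0.05 limma called 0 of the 46, against 0 of 5814 probe sets in all (0%), with 2 of the 46 and 290 of 5814 (4.99%) at an unadjusted p under 0.05. A non-robust fit likewise called 0, with 294 at that unadjusted p. The median SD of the 46 was 0.48 on the log2 scale against 0.47 over all probe sets tested, and 25 of the 46 lay above the latter. By Dixon's test at 95%, 11 of the 65 probe sets had an outlying sample (16.9%), against 17.2% of all probe sets. Of the 46 tested, 3 had one, against 6.04% of the 5814. The 3 largest SDs belonged to Eif4e2 (probe set 161911_f_at) at 1.31, Eif2ak1 at 1.16 and Eef1a2 at 1.07, and the 3 smallest to Eif4e2 (96843_at) at 0.13, Eif4ebp2 (101072_at) at 0.14 and Eif2b5 (96822_at) at 0.14.

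**Figure D4:**
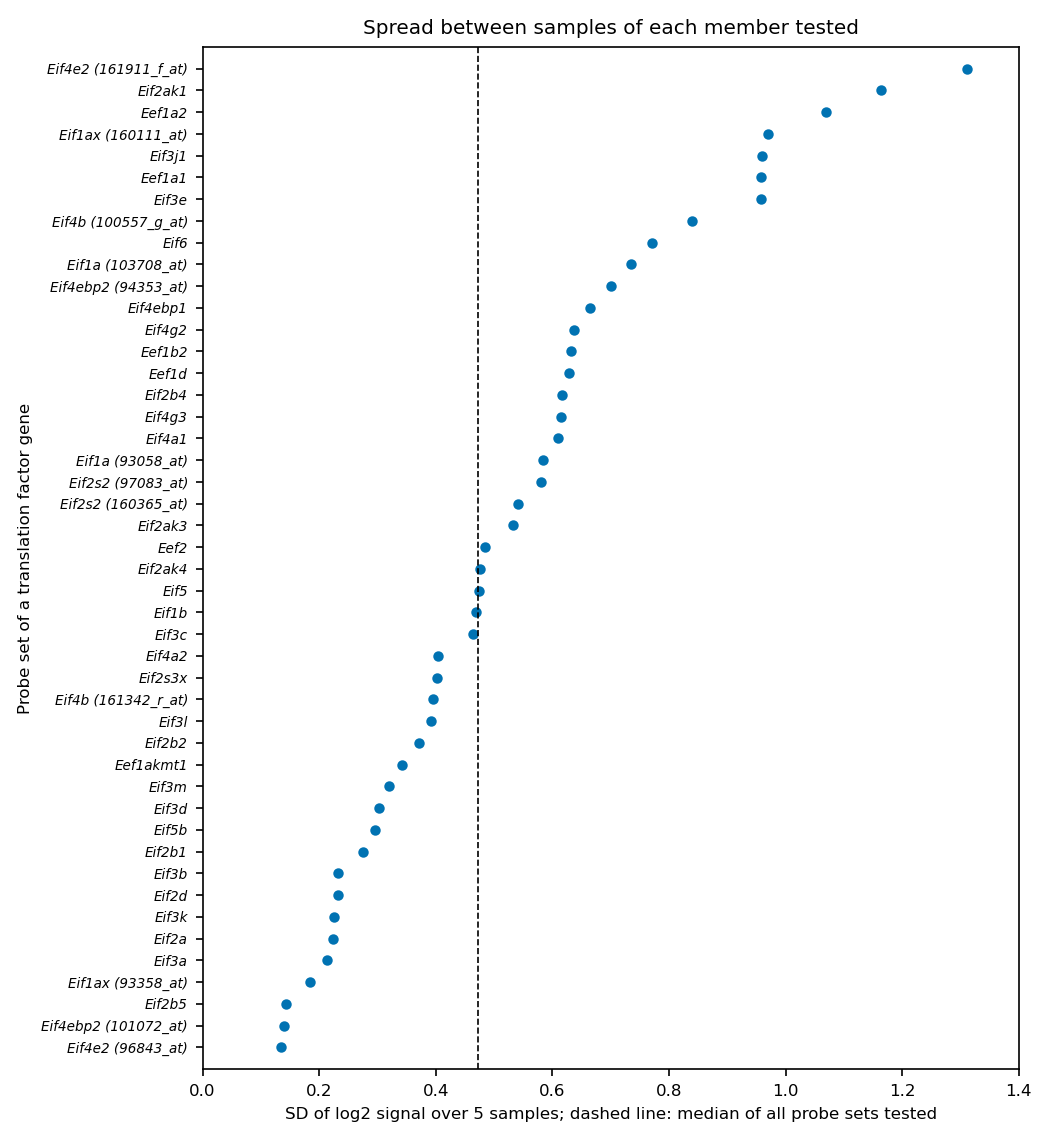
SD of log2 signal over the 5 samples for each of the 46 translation factor probe sets tested, sorted, with the median over all probe sets tested (0.47) as a dashed line. Values run from 0.13 to 1.31, both for probe sets of Eif4e2, and 25 of the 46 lie right of the line.

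No sample held the translation factor genes as a whole far from their mean. Relative to all probe sets tested, the median shift of the 40 genes tested was 0.14, -0.06, -0.07, -0.11 and 0.07 log2 units in samples 1 to 5. In the sample with the largest of these, sample 1, 23 genes lay above and 17 below. With every probe set on its own, the shift in sample 1 was 0.004. The shifts of the genes as a whole in samples 3, 4 and 5 changed sign under some settings. The groups differed more. The 3 kinases tested had a shift of -0.72 in sample 2, with 2 below and 1 above, and 0.60 in sample 3, with 1 below and 2 above. Both values are those of Eif2ak4, the middle gene of the 3, so they show no shared move of the kinases. The eEF1 genes, with the methyltransferase gene Eef1akmt1 counted among them, had a shift of -0.39 in sample 2 and 0.49 in sample 5. The eIF4 factors had -0.42 in sample 5. These signs were kept with quantile normalization, with each filter and with each other sample left out; scaling an array by a constant nearly cancels in this measure. The sizes moved more: the eEF1 shift in sample 5 was 0.32 without sample 2 and 0.28 without sample 3 or with no filter on signal. The kinase shift in sample 2 was -0.47 with no filter on signal. The eIF4 shift in sample 5 was -0.28 without sample 2 and -0.25 with no filter. The eIF4 factors in sample 1, at -0.35, turned to 0.13 with no filter on signal and were at -0.23 without sample 2. With 3 to 9 genes in a group, each shift rests on few genes and carries no test.

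**Figure D5:**
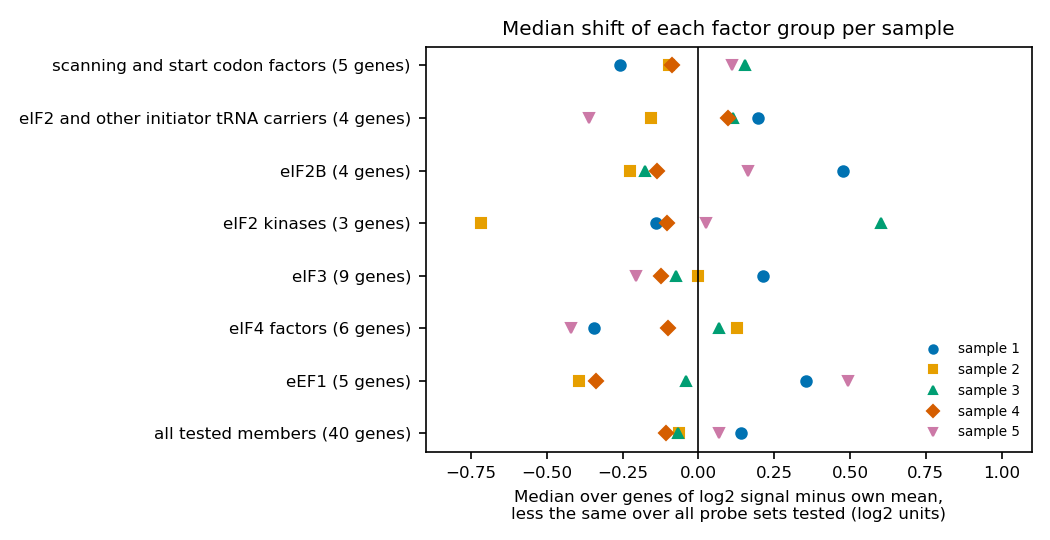
Median over the genes of each factor group of log2 signal minus the gene's own mean, less the same over all probe sets tested, in log2 units, with 1 point per sample. The point of sample 2 for the eIF2 kinases at -0.72 and that of sample 3 at 0.60 lie farthest from 0, and all 5 points of the 40 genes together lie within -0.11 to 0.14. Both of those kinase points are the value of 1 gene, Eif2ak4, the middle of 3.

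Each sample was the lowest for some of the 40 genes and the highest for others. Sample 5 was the lowest for 13 of 40 (32.5%, against 23.6% of all probe sets tested) and sample 4 for 4 (10%, against 8.74%). Sample 1 was the highest for 12 of 40 (30%, against 22.0%) and sample 3 for 10 (25%, against 14.5%). Sample 4 was the highest for 5 (12.5%), against 28.0% of all probe sets tested.

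Other genes that act with these factors, in lists of 4 to 9 measured genes, were mostly above the limit, against 44.5% of all named genes. All 4 measured poly(A) binding genes were, among them Pabpc1, the main poly(A) binding protein, at 7525 ± 1419, and Pabpc4 at 875 ± 199. In the list of mTOR and MAPK control, 7 of 9 genes were, with Mtor, the kinase that phosphorylates 4E-BP1, at 339.6 ± 44.2 and Akt1, which acts upstream of it, at 592 ± 143. Termination and recycling genes were above the limit in 3 of 4 cases, with the release factor genes Etf1 at 1500.4 ± 455 and Gspt1 at 910.3 ± 181. Mitochondrial translation factor genes were in 3 of 4, with the mitochondrial elongation factors Tufm at 264 ± 88.3 and Tsfm, above the median on 3 arrays, at 161 ± 120.4. In none of these lists did a gene pass limma's test for variance, but no probe set of the 5814 tested did.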

How the data were processed

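Values were the intensity values that the authors deposited, 1 per probe set and array on a linear scale. Their software and scaling are not given in the sources used here. Their 2% trimmed mean came to 999.8 in sample 1 but 199.96 in each other sample. After removal of 66 control probe sets, each array was scaled to a common median, and values under the 25th percentile, 30.0, were raised to it before log2. Quoted signals are scaled values before that step. Gene symbols were those of the supplied platform annotation, and all 48 symbols matched RefSeq (GRCm38.p6). RefSeq start sites came from the same build.

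The genes and gene lists were chosen with earlier results of these data known. Every translation factor gene could be named; for other lists, the first 2 measured genes could. Variance was tested with limma 3.58.1 in R 4.3.3, with Benjamini-Hochberg adjustment over 5814 probe sets, and tested on simulated data. Counts against the array median, shifts and SDs are descriptions with no test. With 5 arrays, their number limits the precision. Alternatives were other scalings, limits, floors and filters, every probe set on its own, and leaving out each sample.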

Additional observations from a re-analysis of the deposited data

Results flagged for a closer look

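In 11 of 65 translation factor probe sets, 1 sample lay apart from the other 4 by Dixon's test at 95%, which by chance flags about 1 in 20 groups; among all probe sets the share was 17.2%, and among those with a mean above the median 6.04%. Ratios given here are the gap to the nearest sample over the whole range of log2 signal, and the critical value for 5 samples is 0.71.

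None of the 5 samples was at the floor for 3 of the 11: Eif3e (160554_at) with sample 5 low and a ratio of 0.739, Eif4a1 (92816_r_at) with sample 1 low and 0.734, and Eif1ax (160111_at) with sample 1 low and 0.726. These are an eIF3 subunit, the main helicase and eIF1A.

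In the other 8, some samples lay at the floor of 30.0, where values have no order. With 4 samples at the floor the ratio is 1.0 by construction, as for the second probe sets of Eif3e (101695_at, sample 2 high) and Eif3l (162283_r_at, sample 3 high), one of Eif4ebp2 (96729_at, sample 5 high), and Eif4h (97278_at, sample 1 high), each with a value of 1. Eef2k had a ratio of 0.897 with sample 1 high, Eif4b (100556_at) 0.959 with sample 2 high, and Eif4e 0.811 with sample 2 low by probe set 99097_at and 0.854 with sample 3 high by 162222_r_at.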

How the results depend on the processing

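The count of genes above the limit on all arrays was 34 of 48 and depends on the limit: it was 38 at the 40th percentile (51.1% of all named genes), 19 at the 75th (21.7%) and 40 where 3 arrays sufficed (57.3%). Under the 3 other scalings it is 34 by construction, since they keep the order of probe sets within an array. With a sample left out it was 34 to 37, where a gene had fewer arrays to pass. Limma called 0 translation factor probe sets in each of 11 alternatives, and 0 of all probe sets tested. None of these settings shows stability, since the distribution was fitted to the same probe sets. With no filter on signal no probe set of 12422 reached even an unadjusted p under 0.05. Scaling changed the range of Eef1a1 from 5.24-fold to 2.79-fold (quantile). The number of probe sets with an outlying sample was 13, 10 and 29 with quantile, trimmed mean and deposited scaling, and 5 with a floor at the 10th percentile, 4 of these shared with the 11. Mean log2 signals moved by over 1 SD in 4 of 195 cases and group shifts in 11 of 400. Several group shifts changed sign under some settings, as did those over all tested genes in samples 3, 4 and 5. The deposited values keep the offset of sample 1. No paired analysis was possible because the samples form 1 group. Probe sets near or under the median, among them the kinases, Eif4e and Eif5a, are limited by signal over background, which the values do not give.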
